A study of Mus musculus with 16 samples.

Results

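The drug and fatty acid cytochromes P450 of mouse liver were described from 37 probes for 37 genes, of 25697 probes and 16538 named genes on the array. Members were all probes whose annotated symbol starts with Cyp and a family number, without the cholesterol and bile acid enzymes Cyp51, Cyp7a1, Cyp7b1, Cyp8b1 and Cyp27a1 and without Cyp2d9, when they were detected (detection p under 0.01) on at least 4 of the 16 arrays. Of 76 Cyp probes named, 6 were left out by name, and 37 of the remaining 70 met the detection limit. Of these 37 probes, 32 were detected on all 16 arrays. The other 5 were Cyp2g1 on 15 arrays, Cyp26a1 and Cyp2c55 on 14, Cyp2c50 on 12 and Cyp2d12 on 6. The nearest probes below the limit were Cyp2s1 and Cyp4f16, each detected on 2 arrays.

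The samples were total RNA of frozen livers of female C57BL/6J mice, with biotinylated cRNA hybridised to Illumina 1-colour bead arrays. Chip A carried 4 mice on regular chow and 4 mice on a high-fat diet (HFD), all untreated. Chip B carried 4 HFD arrays and 4 HFD mice given nicotinamide mononucleotide (NMN), from which cells make the coenzyme NAD+, by intraperitoneal route for 7 days. By the animal numbers in the signal columns, the 4 HFD mice of chip A were hybridised again on chip B, so the 16 arrays come from 12 mice. Nothing in the labels gives the composition or length of the diet, the ages, the hour of collection or any injection of HFD mice without NMN. Every array had a mean signal of 202, and between 9473 and 10569 probes were detected per array. As a check of the tissue, the hepatocyte transcripts Apoa1 and Ttr lay between 13.75 and 14.06 and between 13.43 and 13.82 on the log2 scale over the 16 arrays, while the Alb probe lay between 5.39 and 6.34.

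Cytochromes P450 are heme enzymes that insert oxygen into drugs, steroids and lipids, and the liver holds most of the body's capacity for drug oxidation. Families Cyp1 to Cyp3 act mainly on foreign compounds and steroids, and their genes respond to ligand-activated factors, among them the aryl hydrocarbon receptor (AhR), the constitutive androstane receptor (CAR) and the pregnane X receptor (PXR). Family Cyp4 hydroxylates fatty acids and eicosanoids at the end of the chain, and its Cyp4a genes are known targets of the fatty acid receptor PPAR alpha. Several mouse P450 genes differ between the sexes under the control of growth hormone. In liver tissue, fewer cells of a type and less RNA per cell cannot be told apart.

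The comparison of HFD with chow on chip A asked which P450 transcripts differed with the diet. Cyp1a2, Cyp2b10, Cyp2g1, Cyp4f14 and Cyp2a5 fell and Cyp3a11 rose, while 31 of the 37 members did not pass the test. The falls ranged from 4.73-fold for Cyp2b10 to 1.67-fold for Cyp2a5, and Cyp3a11 rose 1.41-fold. In all, 6 of 37 members were called at an adjusted p under 0.05 in the limma fit, beside 7.27% of all 10550 probes tested. Higher calls were 1 of 37 against 3.72% of all probes, and lower calls were 5 of 37 against 3.55%. The difference was negative for 26 members and positive for 11, with a median of -0.18 on the log2 scale beside -0.01 over all probes. The 4 HFD and 4 chow arrays did not overlap for 8 members, 7 lower and 1 higher, beside 14.9% of all probes. These 8 were Cyp1a2, Cyp2a12, Cyp2b10, Cyp2f2, Cyp2g1, Cyp4f13 and Cyp4f14 on the lower side and Cyp3a11 on the higher side.

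**Figure D1:**
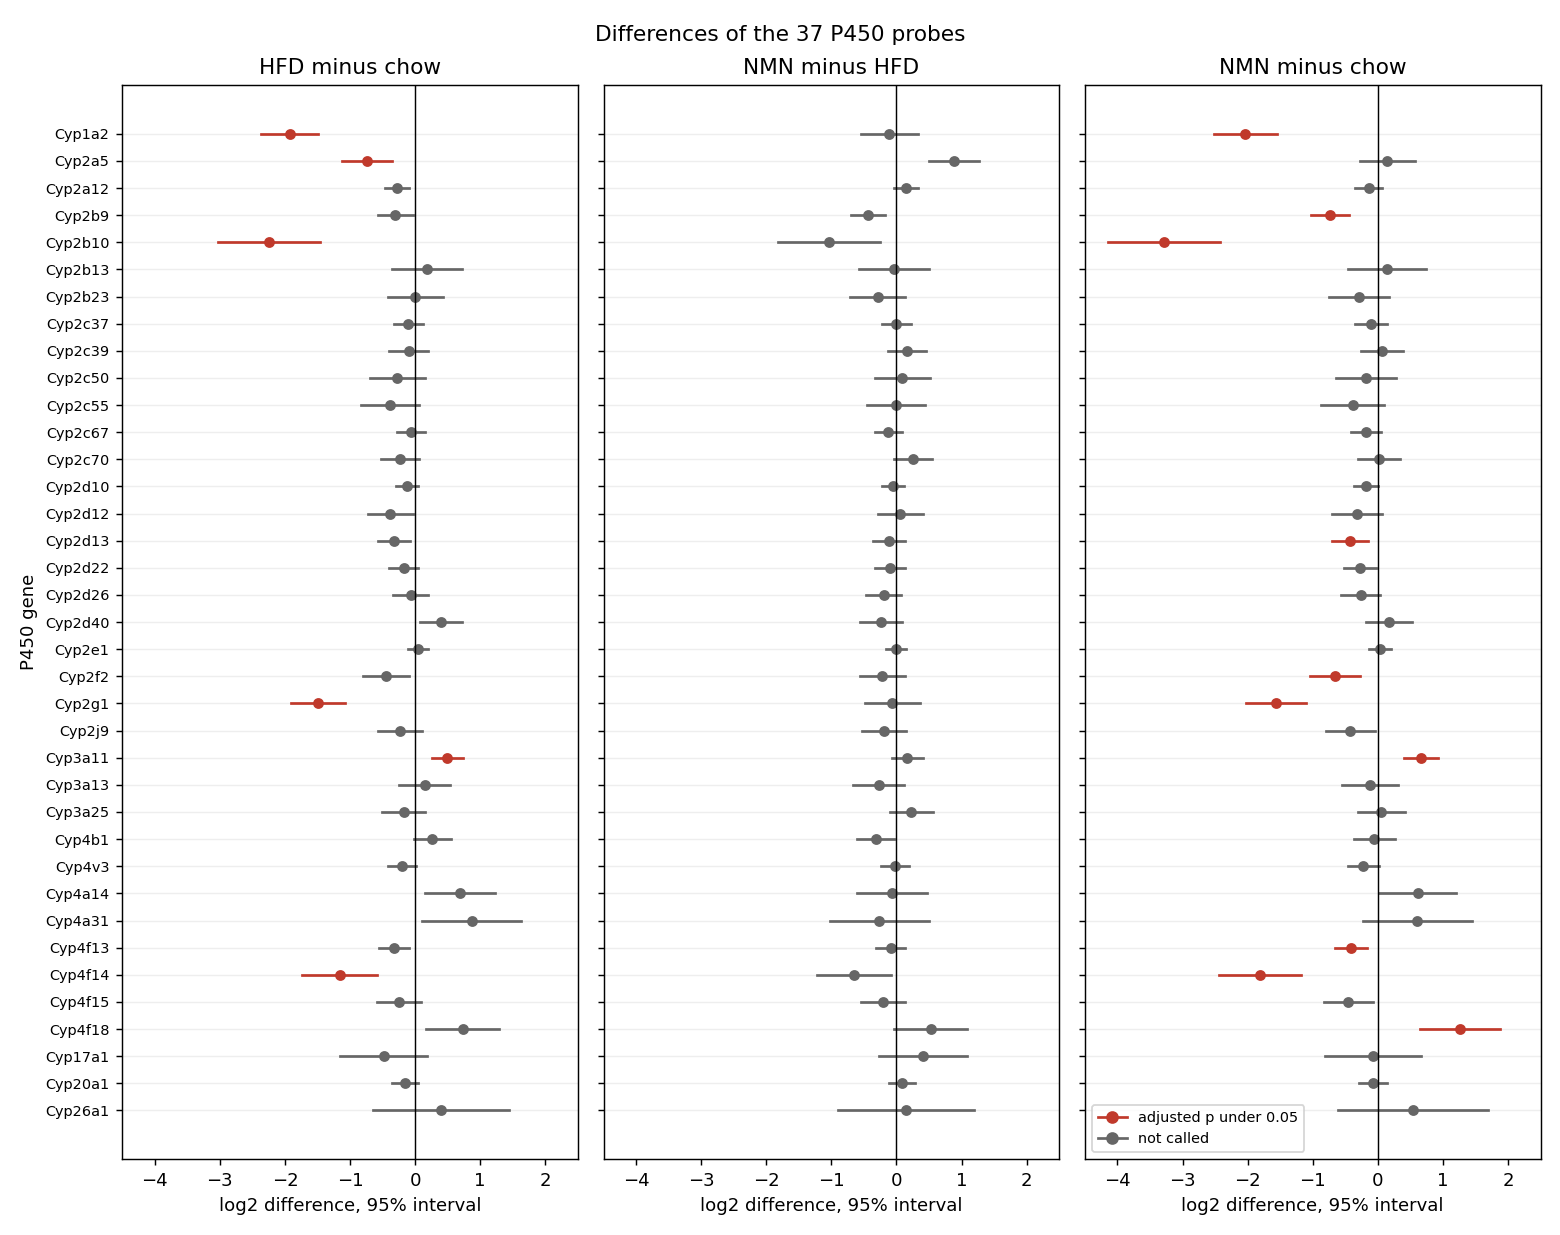
Log2 differences (x axis) of the 37 P450 probes (y axis, by family) for HFD minus chow, NMN minus HFD and NMN minus chow, with 95% confidence intervals of the limma fit as bars and called probes in red. For the diet 5 probes are red on the left of 0 and 1 on the right, the middle panel has none in red, and the right panel has 10.

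Cyp1a2, an AhR-controlled enzyme of pericentral hepatocytes that clears caffeine and activates arylamines, read 11.35, 10.58, 10.55 and 10.79 on the log2 intensity scale in the 4 chow mice. The HFD mice read 8.73, 8.74, 8.99 and 9.11 on chip A and 8.78, 8.73, 8.99 and 9.12 on chip B. Every HFD array lay below every chow array, by more than 1 log2 unit. The fall was -1.93 (SE 0.208, adjusted p = 0.000169), and it was -1.90 without HFD mice 2 and 3. The probe of its sister gene Cyp1a1 was detected on 0 of 16 arrays and that of Cyp1b1 on 1.

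Cyp2b10, the classic phenobarbital-inducible target of CAR, read 8.79, 9.18, 8.70 and 9.61 in chow. On HFD it read 5.96, 6.66, 7.14 and 7.56 on chip A and 5.85, 6.81, 7.19 and 7.48 on chip B. The groups did not overlap, and the 4 HFD mice kept their order on the repeat arrays. The difference was -2.24 (SE 0.371, adjusted p = 0.00281), the largest fall among the members. A second Cyp2b10 probe was detected on 1 array and is no member.

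Cyp3a11, the main PXR target among mouse P450 genes and the enzyme with the broadest range of drug substrates, went the other way. It read 12.27, 11.93, 11.62 and 12.10 in chow, 12.63, 12.38, 12.32 and 12.56 on HFD on chip A, and 12.62, 12.39, 12.32 and 12.60 on chip B. All HFD arrays lay above all chow arrays, narrowly for the third HFD mouse. The rise was 0.49 (SE 0.113, adjusted p = 0.0155), with adjusted p = 0.0514 without HFD replicate 1, 0.0544 without HFD mice 2 and 3 and 0.0692 with the arrays of chip A alone. Its relatives Cyp3a13 and Cyp3a25, both steroid and drug hydroxylases, differed by 0.15 (SE 0.186) and -0.18 (SE 0.157) and were not called. Probes of the other Cyp3a genes on the array, Cyp3a16, Cyp3a41a and Cyp3a44, were detected on 0 arrays.

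Promoter windows from RefSeq (assembly GRCm38.p6, from 250 bases before to 50 after the start site) were found for 30 of the 37 members, 9 of the 11 called in any comparison. Printed here are Cyp1a2, Cyp2b10 and Cyp3a11, the receptor-controlled members that moved most or against the others, Cyp2a5, which came nearest to a call under NMN, and Cyp2b9, a neighbour of Cyp2b10 that was called in NMN mice against chow. Capitals mark matches, on either strand, to GCGTG (the core of the AhR element), AGGTCA (the nuclear receptor element), its variant AGTTCA, or TATAAA (the TATA box); no motif contains another.
Cyp1a2, chr9:57683606-57683905, minus strand: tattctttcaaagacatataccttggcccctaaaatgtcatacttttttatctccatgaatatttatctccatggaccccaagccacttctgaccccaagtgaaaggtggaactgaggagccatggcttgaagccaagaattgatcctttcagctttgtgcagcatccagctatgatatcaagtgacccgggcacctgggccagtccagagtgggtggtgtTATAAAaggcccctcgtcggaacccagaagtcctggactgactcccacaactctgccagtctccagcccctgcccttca
Cyp2b10, chr7:25897408-25897707, plus strand: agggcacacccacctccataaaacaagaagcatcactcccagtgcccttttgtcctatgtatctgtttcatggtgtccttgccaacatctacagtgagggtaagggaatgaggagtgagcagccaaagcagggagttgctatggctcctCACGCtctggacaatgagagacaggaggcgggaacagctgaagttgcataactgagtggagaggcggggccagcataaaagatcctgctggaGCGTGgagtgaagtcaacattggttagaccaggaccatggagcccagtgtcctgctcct
Cyp2b9, chr7:26173159-26173458, plus strand: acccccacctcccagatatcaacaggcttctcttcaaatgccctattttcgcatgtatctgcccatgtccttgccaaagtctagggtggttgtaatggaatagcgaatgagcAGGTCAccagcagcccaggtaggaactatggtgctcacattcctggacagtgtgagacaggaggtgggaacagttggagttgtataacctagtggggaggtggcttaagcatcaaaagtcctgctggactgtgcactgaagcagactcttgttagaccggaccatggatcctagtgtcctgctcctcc
Cyp2a5, chr7:26835089-26835388, plus strand: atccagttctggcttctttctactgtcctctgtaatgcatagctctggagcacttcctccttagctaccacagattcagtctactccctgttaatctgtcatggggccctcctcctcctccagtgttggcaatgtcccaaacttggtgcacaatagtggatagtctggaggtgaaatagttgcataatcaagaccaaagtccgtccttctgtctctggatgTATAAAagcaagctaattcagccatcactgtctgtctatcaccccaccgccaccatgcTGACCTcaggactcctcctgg
Cyp3a11, chr5:145879805-145880104, minus strand: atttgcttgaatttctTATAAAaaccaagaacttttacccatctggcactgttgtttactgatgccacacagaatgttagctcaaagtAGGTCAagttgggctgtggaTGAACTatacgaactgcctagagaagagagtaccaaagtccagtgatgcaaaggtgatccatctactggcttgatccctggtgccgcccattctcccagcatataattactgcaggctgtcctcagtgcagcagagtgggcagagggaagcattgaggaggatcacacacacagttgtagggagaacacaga
Cyp1a2 and Cyp2a5 each hold TATAAA at -29 from the start site. Cyp2b10 holds 2 copies of GCGTG, at -101 on the reverse strand and at -9, and Cyp3a11 holds AGGTCA at -162 beside AGTTCA at -142 on the reverse strand. Such matches are common: GCGTG occurred in 32.4% of 32851 mouse promoter windows and in 5 of the 30 member windows, AGGTCA in 16.3% and 10 of 30, AGTTCA in 14% and 5 of 30, and TATAAA in 13.6% and 12 of 30. Aligned end to end, the windows of Cyp2b10 and Cyp2b9 were identical in 72.9% of columns, and those of Cyp2b9 and Cyp2b13 in 99.3%. A match of letters is a description of the window and not a bound site.

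The Cyp2a and Cyp2b subfamilies hydroxylate coumarin, nicotine and steroids, and in mouse liver Cyp2b9 and Cyp2b13 are known as female-predominant. Cyp2a5, the coumarin hydroxylase, read 12.18, 11.66, 11.93 and 12.26 in chow and 11.12, 10.85, 11.24 and 11.87 on HFD on chip A. HFD replicate 4 lay within the chow range, so the groups overlapped. The fall was -0.74 (SE 0.183, adjusted p = 0.0223). The call did not hold in 9 of 24 alternatives, with adjusted p = 0.068 and 0.0765 without chow replicate 1 or 4, 0.0606, 0.0883 and 0.0732 without HFD replicate 1, 2 or 3, and 0.284 (log2 difference -0.51) without HFD mice 2 and 3. Cyp2a12, a steroid hydroxylase, read 11.91 to 12.08 in chow and 11.52 to 11.88 on HFD, a difference of -0.28 with adjusted p = 0.059. It passed under 4 other ways of scaling or weighting the arrays (adjusted p from 0.024 to 0.0401), with the replicate number as a block (0.0328), without HFD replicate 4 (0.0369) and without NMN replicate 4 (0.0491), which shares in the estimate of the spread.

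The other 3 Cyp2b members were not called on HFD. Cyp2b9 lay between 11.88 and 12.04 in the 4 chow mice and read 11.93, 11.51, 11.62 and 11.64 on HFD, a difference of -0.30 (adjusted p = 0.152). For Cyp2b13 and Cyp2b23 the differences were 0.18 and 0.01, with 95% intervals of -0.36 to 0.72 and -0.42 to 0.43. The transcripts of Cyp2b9 and Cyp2b13 are close copies, and how far each probe also reads the other was not tested.

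Cyp2g1, known best as an enzyme of the olfactory lining, was called in liver as well. It read 6.34, 7.10, 6.88 and 6.46 in chow and 4.84, 5.18, 5.37 and 5.41 on HFD on chip A, with 4.83, 5.27, 5.40 and 5.31 on chip B. No HFD array reached the chow range, and the difference was -1.50 (SE 0.198, adjusted p = 0.000615). The probe is dim on HFD, with signals of 44.7 to 61.7 on chip A beside a median of 33.3 to 37.9 for undetected probes, and its difference was -0.91 on the deposited scaled signals and -0.96 with an offset of 50. Cyp2f2, a periportal enzyme that activates naphthalene, read 11.97 to 12.20 in chow and 11.21 to 11.94 on HFD. The groups did not overlap, but the difference of -0.44 had adjusted p = 0.114.

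By gene order in RefSeq, 8 of the members lie in 1 run of 13 P450 genes on chromosome 7, each less than 500000 bases from the next: Cyp2b10, Cyp2b13, Cyp2b9, Cyp2b23, Cyp2g1, Cyp2a5, Cyp2a12 and Cyp2f2. On HFD 3 of these 8 fell (Cyp2b10, Cyp2g1 and Cyp2a5) and 0 rose. Among the 29 members elsewhere 2 fell and 1 rose. Over all probes 3.55% were called lower and 3.72% higher. The Cyp2a5 call did not hold in 9 of 24 alternatives. Side by side in the run, Cyp2b10 stood at -2.24 and Cyp2b13 at 0.18, and the difference between these 2 responses was not tested.

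The Cyp2c members, epoxygenases of arachidonic acid and drug enzymes, gave 0 calls of 6 on HFD, with differences from -0.38 to -0.06 and a smallest adjusted p of 0.296. Cyp2c70, the enzyme that makes the muricholic bile acids of mice, read 13.01 to 13.43 in chow and 12.61 to 13.24 on HFD. Cyp2c37 read 12.39 to 12.64 in chow and 12.19 to 12.52 on HFD. All 6 estimates were negative, and none passed.

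The Cyp2d members, relatives of the human debrisoquine hydroxylase, gave 0 calls of 6, between -0.38 and 0.41. Cyp2d40 stood highest, at 9.40 to 9.53 in chow and 9.39 to 10.27 on HFD (adjusted p = 0.118, and 0.0192 without HFD replicate 4). Cyp2d10 read 12.24 to 12.49 in chow and 12.08 to 12.34 on HFD (log2 difference -0.13, 95% interval -0.29 to 0.04). Cyp2d12 was detected on 3 of 4 chow arrays and on no HFD array of chip A. Its measured difference of -0.38 was not called (adjusted p = 0.167, and 0.031 without chow replicate 2). Chow replicate 2 read 4.35, below the HFD arrays of chip A at 4.44 to 4.57, so the groups overlapped.

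Cyp2e1, the pericentral enzyme that oxidises ethanol and acetaminophen, was not called. It read 13.69, 13.69, 13.73 and 13.80 in chow and 13.88, 13.65, 13.77 and 13.80 on HFD, a difference of 0.05 with a 95% interval of -0.11 to 0.20. This probe lies at the top of the intensity range, where quantile normalization left only 7 distinct values over the 16 arrays. Cyp2j9, of a subfamily that makes epoxides of arachidonic acid, differed by -0.23 (adjusted p = 0.42).

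Of the fatty acid hydroxylases of family Cyp4, 4 had negative and 4 had positive differences on HFD. Cyp4f14, which inactivates leukotriene B4 and shortens the side chains of vitamins E and K, was the 1 called member of 8. It read 11.57, 11.87, 11.82 and 11.35 in chow and 9.77, 10.81, 10.85 and 10.54 on HFD on chip A, with 9.70, 10.81, 10.99 and 10.51 on chip B. All HFD arrays lay below all chow arrays, with a difference of -1.16 (SE 0.271, adjusted p = 0.0164). Of the other Cyp4f members, Cyp4f13 and Cyp4f15 differed by -0.32 (adjusted p = 0.0766) and -0.24 (adjusted p = 0.389), and Cyp4f18 by 0.73 in the other direction (adjusted p = 0.103). Cyp4v3, the mouse counterpart of the gene behind a human corneal and retinal dystrophy, differed by -0.20 (adjusted p = 0.249).

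Cyp4a14, an omega-hydroxylase of fatty acids, read 12.11, 11.58, 10.94 and 11.68 in chow and 13.04, 11.61, 12.04 and 12.36 on HFD. Cyp4a31, a close relative, read 9.36, 8.25, 8.29 and 8.84 in chow and 10.80, 8.54, 9.38 and 9.49 on HFD. HFD mouse 1 was the highest of all 16 arrays for both genes, and HFD mouse 2 lay within the chow range for both. The differences of 0.69 (adjusted p = 0.111) and 0.87 (adjusted p = 0.153) did not pass. Averaged over 12 measured PPAR alpha targets outside the P450 genes, HFD mouse 1 also stood highest, at 0.99 above chow on chip A, with 0.18, 0.44 and 0.39 in HFD mice 2 to 4. Of those 12 targets 5 rose and 0 fell, among them Fgf21, a fasting hormone of liver, by 1.66 and Plin2, a coat protein of lipid droplets, by 0.78. The part of PPAR alpha in the Cyp4a signals was not tested. Whether the Cyp4a probes cross-react with other Cyp4a copies was not tested either, and both Cyp4a12 probes were detected on 0 arrays.

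Cyp4f18 hydroxylates leukotriene B4 in neutrophils, and its liver signal was read beside leukocyte markers. It read 5.40, 5.39, 5.99 and 5.47 in chow and 6.29, 6.41, 6.70 and 5.80 on HFD, a difference of 0.73 with adjusted p = 0.103. Without NMN replicate 3, which shares in the estimate of the spread, adjusted p was 0.0237. The mean of 10 measured neutrophil transcripts, relative to chow, lay between -0.16 and 0.19 in chow mice. On chip A it was 0.84, 2.29, 2.04 and 0.02 in the HFD mice, in the order of their numbers. Of the 10, Lcn2 read 7.32, 7.25, 7.74 and 9.74 in chow and 12.68, 11.02, 8.94 and 7.96 in these HFD mice. Lcn2 thus makes up much of the mean in HFD mouse 1. In the same mice 9 measured macrophage transcripts stood at 0.52, 1.59, 1.13 and 0.44. Of these lists 2 of 10 neutrophil and 4 of 9 macrophage transcripts rose on HFD, S100a8, a neutrophil protein, by 2.68 and the macrophage lysozyme Lyz2 by 1.65. Their part in the Cyp4f18 signal was not tested. HFD mice 2 and 3 stand apart from the other HFD mice in these lists. Without them the diet calls of Cyp1a2, Cyp2b10, Cyp2g1 and Cyp4f14 remained in the limma fit. Those of Cyp2a5 (adjusted p = 0.284) and Cyp3a11 (adjusted p = 0.0544) did not. The part of leukocytes in the P450 differences was not tested.

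The remaining members gave 0 calls of 3. Cyp26a1, which breaks down retinoic acid, read 4.88, 5.05, 6.56 and 4.93 in chow and 4.53, 4.86, 6.70 and 6.90 on HFD, so each group held both low and high mice. Cyp17a1, the steroid hydroxylase of androgen synthesis, read 10.18 to 10.85 in chow and 8.97, 10.46, 10.37 and 10.15 on HFD. Its lowest value came from HFD mouse 1 on both chips, 8.97 and 8.86. Cyp20a1, an orphan P450, differed by -0.16 (adjusted p = 0.344).

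**Figure D2:**
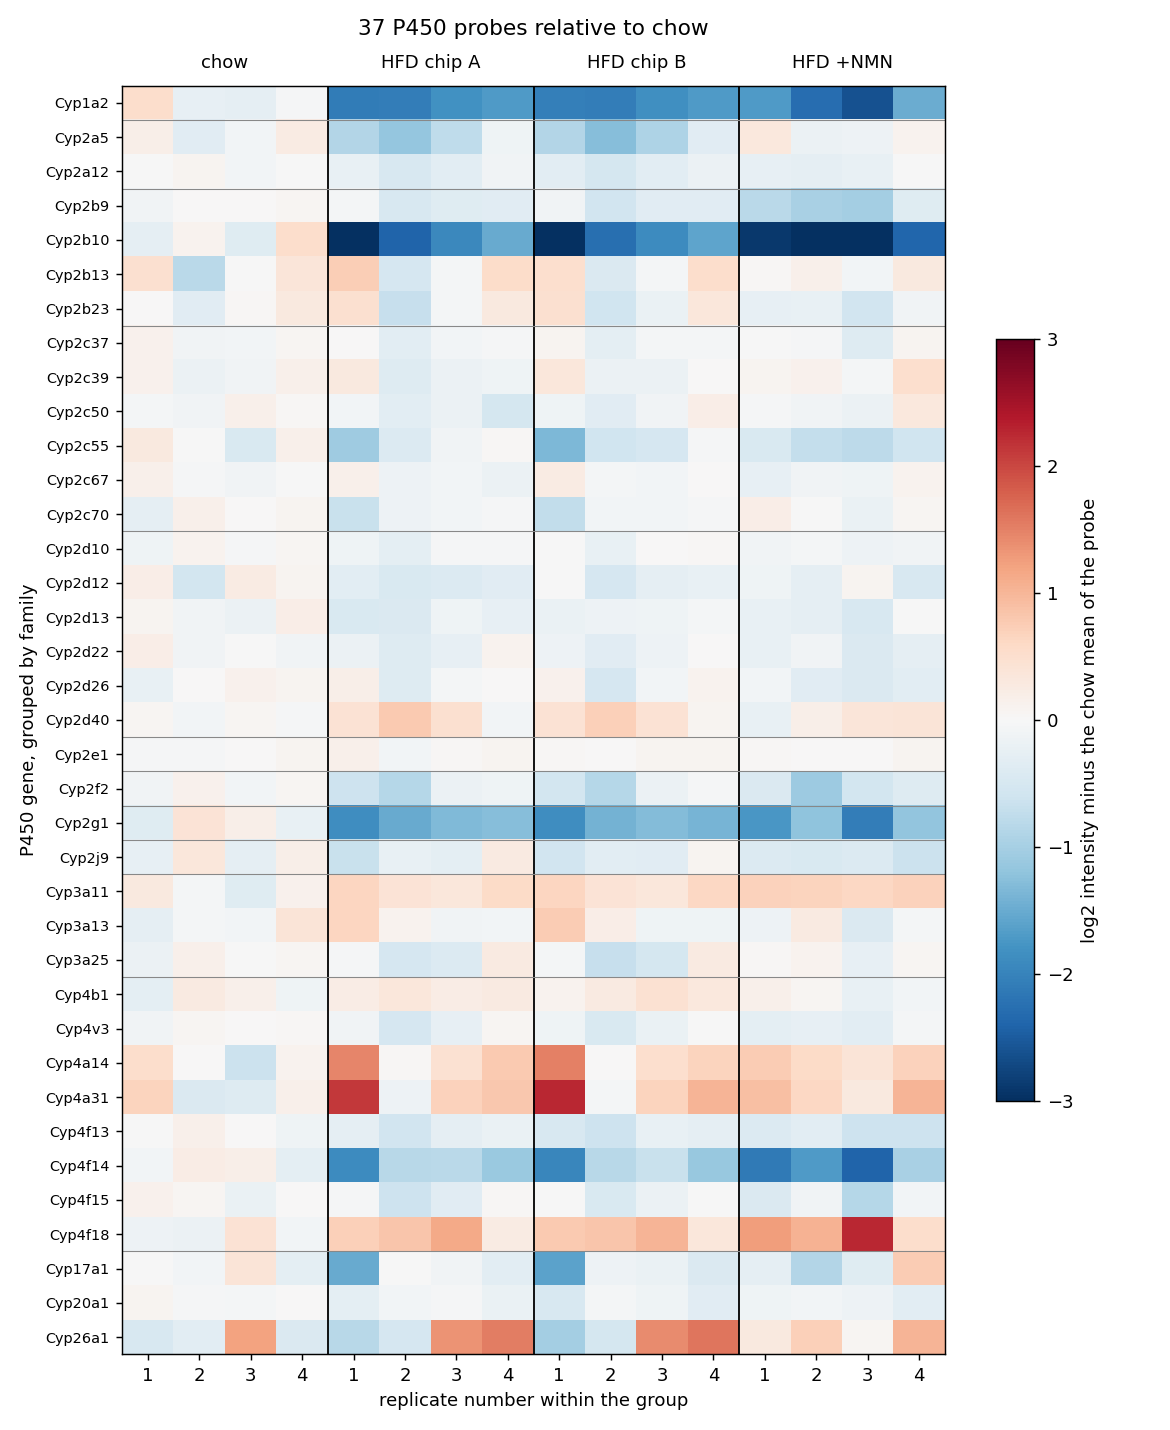
Log2 intensity of each of the 37 P450 probes (rows, by family) minus its chow mean, on all 16 arrays (columns, by group and replicate number); blue is below and red above the chow mean, and the colour scale ends at 3 in either direction. Cyp1a2, Cyp2b10, Cyp2g1 and Cyp4f14 are blue on every HFD and NMN array, and Cyp3a11 is red on each of them.

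The HFD mice on both chips show how P450 levels varied from mouse to mouse. The same mouse was lowest on both chips for 32 of the 37 members and the same mouse highest for 28. HFD mouse 2 was lowest on both for 19 members, among them Cyp2a5 and Cyp2a12. HFD mouse 1 was lowest or highest on both for 21, and HFD mouse 4 was highest for 13. The median SD between HFD mice on chip A was 0.279 log2 units over the members and 0.141 over all probes tested, while the median SD between repeat arrays of a mouse was 0.0618 and 0.0695. Chow and NMN mice had a median SD of 0.184 and 0.197 over the members.

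**Figure D3:**
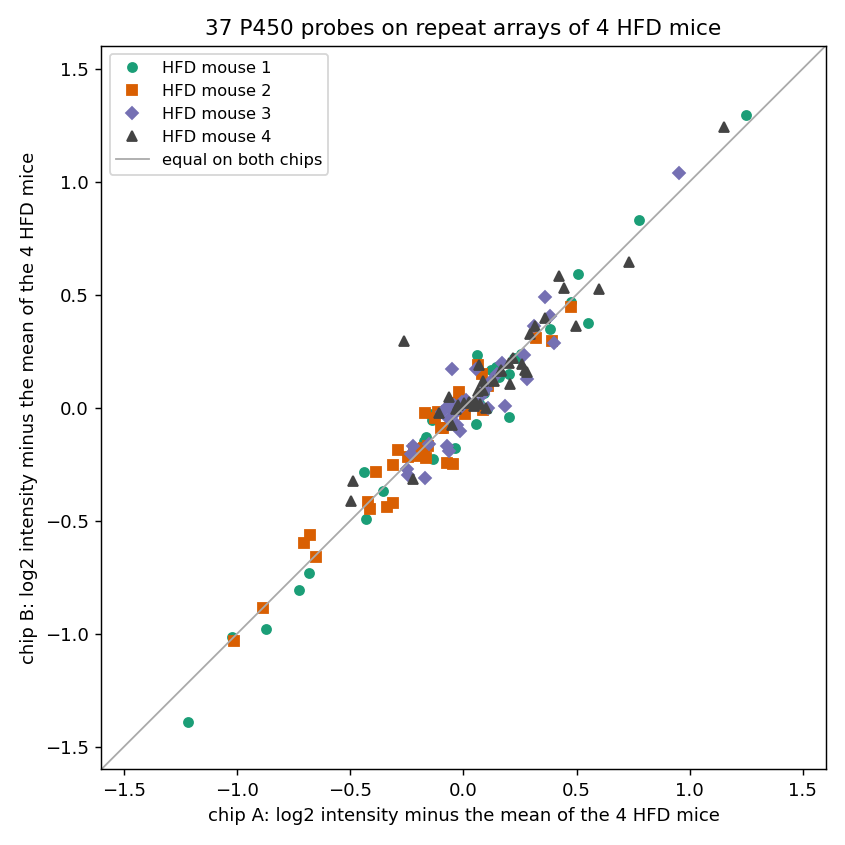
Each point is 1 P450 probe in 1 HFD mouse: its log2 intensity minus the mean of the 4 HFD mice on chip A (x axis) and on chip B (y axis), with the line of equality in grey. Points lie close to the line, and the widest ones belong to HFD mouse 1, HFD mouse 2 and, for Cyp26a1, HFD mice 3 and 4.

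Between the chips, repeat arrays of the HFD mice differed by -0.24 to 0.18 on the log2 scale over the members. Of the 37 members 0 were called in this comparison, with a smallest adjusted p of 0.0621 for Cyp2d13 and 3 members under an unadjusted p of 0.05, while 4.88% of all probes were called and 18.8% had an unadjusted p under 0.05. Cyp2d13 was higher on chip B in all 4 mice, at 5.71, 5.75, 5.77 and 5.84 against 5.45, 5.47, 5.77 and 5.65, and it passed (adjusted p = 0.0193) without HFD replicate 3.

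The comparison of NMN with HFD on chip B asked whether P450 transcripts moved after 7 days of NMN. Of 37 members 0 passed in the limma fit and 5 had an unadjusted p under 0.05: Cyp2a5, Cyp2b9, Cyp2b10, Cyp4f14 and Cyp4b1. Over all probes 1 of 10550, or 0.00948%, was called, and 8.97% had an unadjusted p under 0.05. The median difference of the members was -0.06 beside -0.004 over all probes, with 25 negative and 12 positive. The HFD arrays of chip B are the same mice as on chip A, so this comparison and the diet comparison share their HFD mice.

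Cyp2a5 had the smallest adjusted p of the members. It read 11.12, 10.73, 11.07 and 11.67 in HFD mice on chip B and 12.32, 11.84, 11.86 and 12.11 in NMN mice. Every NMN mouse lay above every HFD mouse, which held for 1 of 37 members and for 4.78% of all probes. The difference was 0.88 (SE 0.183, adjusted p = 0.0986), and it passed (0.0405, difference 1.06) without HFD replicate 4. The NMN values fell within or just above the chow range of 11.66 to 12.26, and the difference of NMN from chow was 0.15 (SE 0.201, adjusted p = 0.689). Dbp, a P450 gene regulator that varies with the hour of day, was 2.34 higher under NMN than on HFD, without passing (adjusted p = 0.36). On both chips HFD mouse 2 was lowest and HFD mouse 4 highest for both Dbp and Cyp2a5. Among NMN mice the highest Dbp went with the lowest Cyp2a5. The hour of collection is not given, and its part in the Cyp2a5 differences with NMN or diet was not tested.

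Cyp2b10 and Cyp2b9 were lower on average in NMN mice than in HFD mice, without passing. Cyp2b10 read 6.18, 5.66, 4.66 and 6.69 under NMN, a difference of -1.04 (SE 0.371, adjusted p = 0.381), and 2 of the 4 NMN mice lay within the HFD range of chip B. Cyp2b9 read 11.87, 11.41, 11.63 and 11.63 in HFD mice on chip B and 11.18, 11.01, 10.97 and 11.62 under NMN, a difference of -0.44 (SE 0.125, adjusted p = 0.23). NMN replicate 4 alone lay within the HFD range, and without it Cyp2b9 passed (difference -0.58, adjusted p = 0.0458). Cyp4f14 read 9.53, 9.96, 9.25 and 10.67 under NMN (difference -0.65, adjusted p = 0.468). Cyp4b1, a fatty acid hydroxylase best known for activating lung toxins, differed by -0.32 (adjusted p = 0.48).

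Cyp1a2 under NMN read 9.11, 8.53, 8.21 and 9.33, spanning the HFD values, and its difference from HFD was -0.11 with a 95% interval of -0.55 to 0.33. Cyp2g1 differed by -0.06, with an interval of -0.48 to 0.36. Cyp3a11 read 12.68, 12.64, 12.61 and 12.67, a difference of 0.17 with an interval of -0.07 to 0.41. For Cyp4a14 and Cyp4a31 the differences were -0.07 (-0.61 to 0.47) and -0.26 (-1.02 to 0.50). An interval that contains 0 does not show that NMN left a transcript as it was.

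**Figure D4:**
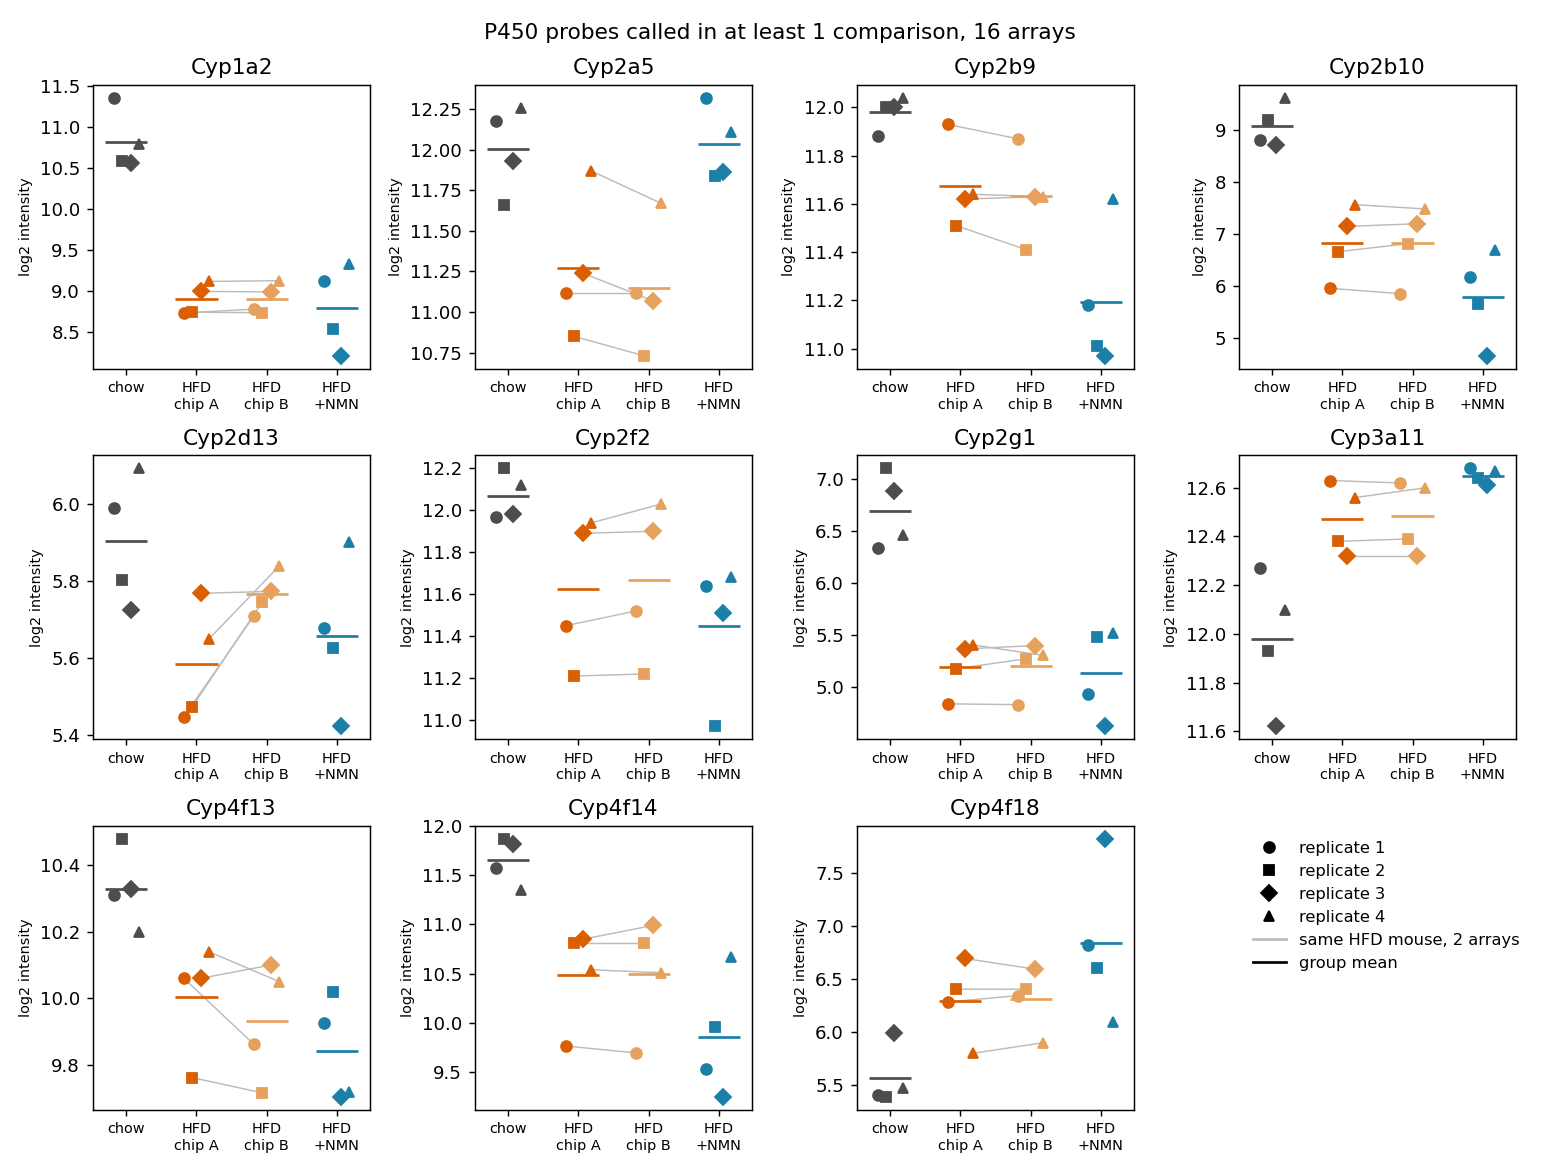
Log2 intensity (y axis, a scale of its own for each gene) of the 11 P450 probes called in at least 1 comparison, in chow, HFD on chip A, HFD on chip B and HFD with NMN; symbols are replicates, bars are group means, and grey lines join the 2 arrays of an HFD mouse. Cyp1a2, Cyp2b10, Cyp2g1 and Cyp4f14 lie lower in HFD and NMN mice than in chow, Cyp3a11 lies higher, and the Cyp2a5 values of NMN mice overlap those of chow.

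NMN mice were set against chow across the chips, as the sum of both differences bridged by the HFD mice on both. Cyp2b10, Cyp1a2, Cyp4f14, Cyp2g1, Cyp2b9, Cyp2f2, Cyp2d13 and Cyp4f13 were lower and Cyp4f18 and Cyp3a11 higher in NMN mice than in chow. That is 10 of 37 members (27%) beside 11% of all probes, with 2 higher (5.32% of all probes) and 8 lower (5.65%). The median was -0.18 beside -0.01 over all probes. Because this contrast contains the diet difference, its calls are not independent of those for HFD.

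Among the enzymes of foreign compounds, Cyp2b10 was -3.28 (SE 0.408, adjusted p = 0.000405) from chow, or 9.72-fold lower. Cyp1a2 stood at -2.04 (SE 0.229, adjusted p = 0.000212) and Cyp2g1 at -1.56 (SE 0.218, adjusted p = 0.000687), or -0.93 on the deposited scaled signals and -0.99 with an offset of 50. Cyp3a11 was higher by 0.66 (SE 0.125, adjusted p = 0.00403). In all 4 of these genes each NMN array lay on the same side of all chow arrays. Cyp2b9, at -0.74 (SE 0.138, adjusted p = 0.00373), was called here and not for HFD alone.

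The smaller falls did not all hold without single mice. Cyp2f2 read 11.64, 10.97, 11.51 and 11.68 under NMN, a difference of -0.66 (adjusted p = 0.0296), with adjusted p from 0.0612 to 0.0698 without chow replicate 2 or 4 or NMN replicate 2 or 3. Cyp4f13 read 9.93, 10.02, 9.70 and 9.72, a difference of -0.41 (adjusted p = 0.0343), and did not pass in 11 of 24 alternatives, among them those without chow replicate 1, 2 or 3, HFD replicate 3 or NMN replicate 1, 3 or 4 (0.0514 to 0.108). Cyp2d13 read 5.68, 5.63, 5.42 and 5.90, a difference of -0.43 (adjusted p = 0.0416), and did not pass in 16 of 24, among them those without chow, HFD or NMN replicate 1 or 2, chow or HFD replicate 4 or NMN replicate 3 (0.0541 to 0.137). Set directly against chow across the chips, Cyp2d13 differed by -0.25 (adjusted p = 0.17), and it differed by -0.18 (adjusted p = 0.159) on the deposited scaled signals and by -0.26 (0.0484) with an offset of 50.

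In family Cyp4, Cyp4f14 was -1.81 (SE 0.298, adjusted p = 0.00175) from chow and Cyp4f18 was higher by 1.26 (SE 0.292, adjusted p = 0.0118). Cyp4f18 read 6.82, 6.61, 7.83 and 6.10 in NMN mice, all above the chow mice. Its highest value, in NMN replicate 3, went with the highest mean of 4 measured T and B cell transcripts (1.57 above chow, with 0.39, 0.21 and 0.27 in the other NMN mice). Without NMN replicate 3 the difference was 0.93 and was still called. The macrophage transcripts of the NMN mice averaged 1.72, 0.56, 0.95 and 0.29 and the neutrophil transcripts 0.90, 0.51, 0.46 and 0.22, both highest in NMN replicate 1. Among the neutrophil transcripts Lcn2 alone was called in NMN mice against chow (2.87, adjusted p = 0.047 in the limma fit). It read 10.77, 11.63, 11.2 and 9.49 in the NMN mice and adds to the neutrophil means. The part of T and B cells, macrophages and neutrophils in the Cyp4f18 signal was not tested.

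The electron donors and heme supply that P450 enzymes need were read from lists of other genes. Beside the counts of all gene lists, 3.55% of all probes were lower and 3.72% higher on HFD. In NMN mice against chow 5.65% were lower and 5.32% higher. Of 6 measured genes of electron supply, such as Cyb5a and Cyb5b, 0 rose and 0 fell in any of the 3 comparisons. That list held 12 genes, and Por, Fdx1 and Fdxr were among those not measured. Electron supply was therefore read only in part. Of 10 measured heme genes, Hmox1, which breaks heme down, rose by 0.89 on HFD (adjusted p = 0.013) and by 1.09 in NMN mice against chow (adjusted p = 0.00542), and the others did not pass. Alas1, the rate-limiting enzyme of heme synthesis, differed by 0.06 on HFD (SE 0.267).

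Of 15 measured receptors and factors that control P450 genes, 4 fell on HFD and 0 rose. Cux2, a female-predominant liver repressor, fell by 1.68 (SE 0.282, adjusted p = 0.00311), with no chow mouse under 6.28 and no HFD array of chip A over 5.33. Bcl6, a male-predominant repressor of the growth hormone pathway, fell by 1.44 (adjusted p = 0.0114). Ppargc1a, a coactivator, fell by 0.55 (adjusted p = 0.0258), and Rxra, the partner of CAR, PXR and PPAR alpha, fell by 0.48 (adjusted p = 0.0449). The transcripts of CAR (Nr1i3), PXR (Nr1i2) and PPAR alpha (Ppara) differed by -0.19, -0.25 and 0.05 and were not called. In NMN mice against chow, Rxra (-0.74), Rxrb (-0.33) and Ppargc1a (-0.50) were lower and 0 were higher.

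Other targets of the same receptors were mixed. Of 14 measured CAR and PXR targets outside the P450 genes 3 fell on HFD: the sulfotransferase Sult5a1 (-1.22), the transporter Slco1a4 (-0.84) and the sulfate donor enzyme Papss2 (-0.72). In NMN mice against chow 2 of the 14 were lower, Sult5a1 (-1.32) and Slco1a4 (-1.16). The Sult5a1 probe read 5.041 to 6.371 in chow, 4.255 to 4.431 on HFD on chip A and 4.149 to 4.322 in NMN mice. It is dim on HFD and with NMN, which limits what the size of its differences shows. Of 3 measured AhR targets outside the P450 genes 0 were called on HFD, and the glucuronosyl transferase Ugt1a6a was higher in NMN mice than in chow, by 0.73 (adjusted p = 0.0226). Of 12 PPAR alpha targets 1, Fgf21, was higher in NMN mice than in chow (1.77, adjusted p = 0.00608).

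Other oxidising and conjugating enzymes moved in both directions. Of 11 flavin monooxygenases, epoxide hydrolases and oxidases Aldh3a2 rose by 0.45 on HFD, while the aldehyde oxidase Aox3 (-0.66) and the alcohol dehydrogenase Adh4 (-0.41) fell. In NMN mice against chow 3 of 11 were higher, the flavin monooxygenase Fmo5 by 0.83, the epoxide hydrolase Ephx1 by 0.62 and Aldh3a2 by 0.53, and Aox3 (-0.64) and Adh4 (-0.63) were lower. Of 13 transferases 3 fell on HFD and 0 rose: Sult1a1 (-0.44), Ugt2b34 (-0.55) and the dim Sult5a1, counted among the CAR and PXR targets as well. Between NMN and HFD 0 genes of these lists passed in the limma fit.

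Hepatocyte transcripts were read beside the P450 genes. The mean of 10 measured hepatocyte transcripts relative to chow was -0.40 to -0.15 in the HFD mice on chip A, -0.26 to -0.04 in the same mice on chip B and -0.37 to -0.03 in NMN mice, also on chip B. Of these 10, Cps1 (-0.68) and Ass1 (-0.54), enzymes of the urea cycle, fell on HFD, 0 rose and 8 did not pass. Periportal transcripts, a list that shares Cps1, Ass1 and Alb with the hepatocyte list, stood lower. Without the P450 gene Cyp2f2, the mean of 6 was -0.74 to -0.26 in HFD mice on chip A, -0.51 to -0.07 on chip B and -0.81 to -0.14 in NMN mice. With Cyp2f2 counted, 2 of 7 fell on HFD, Cps1 and Ass1, and 4 of 7 were lower in NMN mice than in chow: the Alb probe (-0.63), Pck1 of gluconeogenesis (-1.04), Hal of histidine breakdown (-1.24) and Cyp2f2. The Alb probe read 6.08, 5.73, 5.80 and 5.93 in chow and 6.17, 5.73, 5.58 and 5.99 in NMN mice. In the HFD mice it read 5.39 to 5.75 on chip A and 5.91 to 6.34 on chip B. Pck1 read 4.98 to 5.74 in HFD mice on chip A and 5.30 to 6.26 on chip B. The Alb and Pck1 differences from chow therefore depend on the correction for a shift between the chips. Pericentral transcripts without the P450 genes Cyp1a2 and Cyp2e1 averaged -0.21 to 0.02 over 9 genes in HFD mice on chip A, within or next to the range of the chow mice (-0.15 to 0.20), and -0.24 to 0.17 in NMN mice. Of these 9, Gulo, the last enzyme of vitamin C synthesis, fell on HFD (-0.46). The part of cell composition in the P450 differences was not tested.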

How the data were processed

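Liver RNA of 12 female mice was measured on 16 Illumina 1-colour bead arrays in 4 groups of 4, grouped by sample title, on 2 chips. The deposited signal table holds linear intensities of 25697 probes, which the authors scaled to the same mean of 202 on each array without subtracting background. A detection p-value stands beside each intensity, per the file headers. Another deposited table holds the authors' z score of each array, used as an alternative. The labels name no array software and no genome build. Nothing says whether tissue was pooled. P-values measure the spread between these mice, except for chip B minus chip A, where the same mice stand on both sides.

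Intensities were background-corrected and quantile normalized by neqc (R 4.3.3, limma 3.58.1), with the detection p-values and an offset of 16, and put on a log2 scale, which draws differences of dim probes toward 0. The 10550 probes with detection p under 0.01 on at least 4 arrays entered 1 limma fit of 4 group means. HFD arrays with the same animal number in the file headers are the same mouse, so mouse was a random block. Deviations from the group means correlated at r = 0.88, 0.883, 0.734 and 0.854 across probes in these repeat pairs, and the consensus correlation was 0.788. For chip B minus chip A the spread of each probe was scaled by this shared correlation, not by its own repeat arrays. P-values were adjusted over all 10550 probes by the method of Benjamini and Hochberg, and a call needs an adjusted p under 0.05. NMN minus chow is the sum of the within-chip differences. The number of arrays limits the precision.

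Gene symbols came from the platform annotation, which named 16850 probes, 6636 of those tested. The only coordinates used were those of the RefSeq promoters and of the RefSeq P450 genes on chromosome 7 (GRCm38.p6). Levels are not compared between probes. Members and gene lists were chosen with earlier results of these data known. Named are all members called in a comparison, Cyp1a2, Cyp2b10 and Cyp3a11, the member with the highest mean of families without a call, members whose groups do not overlap, and up to 4 genes of each list with the smallest p. Other genes given with values were picked after their values were seen. The fit was tested on simulated data. Alternatives covered normalization, filter, block, chip, weights and left-out mice. Probes without a symbol were not used by name.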

Additional observations from a re-analysis of the deposited data

Results flagged for a closer look

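In 148 groups of 4 arrays (37 members in 4 groups), 6 held an array far from the other 3, with a gap to its nearest neighbour past Dixon's 95% critical value. Chance gives about 5% of groups. In chow, replicate 3 was high for Cyp26a1, at 6.56 against at most 5.05 in the others, and for Cyp4f18, at 5.99 against at most 5.47. In HFD on chip B, replicate 1 was low for Cyp2c70, at 12.54 with the next at 13.18; the same mouse read 12.61 and was the lowest on chip A. Replicate 2 was low for Cyp2d10, at 12.15 with the next at 12.37, and it was the lowest on chip A too, at 12.08. In NMN, replicate 4 was high for Cyp2a12, at 11.97 with the next at 11.76, and low for Cyp2j9, at 5.20 with the next at 5.39.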

How the results depend on the processing

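The 16 calls of members were each recomputed under 24 alternatives: of 384 values 331 stayed called, 53 did not pass and 0 reversed. Cyp1a2, Cyp2b10 and Cyp2g1 passed in all 24, on HFD and in NMN mice against chow. On HFD the 6 called members became 4 to 8 without 1 mouse and 4 without a detection filter or with the arrays of chip A alone. With the replicate number as a fixed replicate block 11 members passed, adding Cyp2a12, Cyp2d13, Cyp4a14, Cyp4a31 and Cyp4f18, and for NMN minus HFD 1 passed, Cyp2a5 (adjusted p = 0.0298). The numbers were not taken as a pairing of chow with HFD or of HFD with NMN mice: deviations correlated at 0.016 to 0.245 and -0.285 to 0.306, and 5 of 8 and 2 of 8 arrays correlated best with their own number. For NMN minus HFD, 0 to 1 members passed without 1 mouse, and adjusted p of Cyp2a5 ranged from 0.0298 to 0.429 over all alternatives. For NMN minus chow, 10 members became 3 with no replicate block for the mouse, 6 without a detection filter (more probes tested) and 7 to 9 without 1 mouse; without the block, adjusted p was 0.0621 for Cyp2b9 and Cyp3a11 and 0.055 for Cyp4f14. Between the chips, 0 became 4 on the deposited scaled signals (Cyp2c39, Cyp2c50, Cyp2d13 and Cyp2e1), with no normalization between arrays, and 0 to 1 without 1 mouse. Over all probes the diet calls ranged from 163 (without HFD mice 2 and 3) to 1282 (replicate number as a block), beside 767, and those of NMN minus chow from 138 to 1580, beside 1157. The causes were not tested. Dim probes such as Cyp2g1, Cyp2d12, Cyp2c50 and Cyp26a1 lie near background, which limits what their differences show.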
